A study of Mus musculus with 7 samples.

Results

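The genes described here are 10 angiogenic ligands and endothelial receptors: the ligands Vegfa, Angpt1, Angpt2 and Apln, the receptors Flt1, Kdr, Tek, Tie1 and Aplnr, and Nos3, the endothelial nitric oxide synthase (eNOS). They were chosen by gene symbol as members of the VEGF, angiopoietin and apelin pathways and eNOS, and they are 10 of the 21965 genes counted. All 10 were among the 15743 genes with enough counts to be tested. Their levels were compared in contused mouse spinal cord between 3 mice labelled Bmal1-/- and 4 wild type (WT) mice, with 1 RNA library per mouse. Bmal1-/- mice carried the germline Arntltm1Bra allele (B6.129-Arntltm1Bra/J on C57BL/6) in all their cells, so that no cell type was targeted. WT mice were C57BL/6 (C57Bl/6 J in the study's methods), bought apart from 1 littermate of the knockouts. All mice were 8 to 10 weeks old and received a moderate contusion at T9 (50 kdyn, displacement 400 to 600 µm). On day 3 post-injury (dpi 3), between ZT 3 and ZT 5 (hours after lights on), they were perfused with saline and 5 mm of cord at the epicenter was taken. The group labelled Bmal1-/- held 2 females and 1 male, and WT held 2 females and 2 males. No uninjured cord was analysed here.

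VEGFA, made by astrocytes and other cells of the cord, binds VEGFR2 (Kdr), the main signaling receptor of endothelial cells (EC), and VEGFR1 (Flt1), which binds it tightly, signals weakly and is also made as a soluble decoy. Angiopoietin 1 (Angpt1), made by mural and other non-endothelial cells, activates the receptor TIE2 (Tek) and keeps vessels quiet and tight. Angiopoietin 2 (Angpt2), released by activated EC, mostly opposes it, while TIE1 is a partner of TIE2 with no ligand of its own in the classical scheme. Apelin (Apln) is a peptide made by sprouting EC, and its receptor APJ (Aplnr) is a G protein-coupled receptor of EC, best known from growing vessels and veins. BMAL1, the product of Arntl, is a clock transcription factor that pairs with CLOCK or NPAS2 and binds E-box sequences.

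Libraries held 38529644 to 44096737 counts, and the members were covered by 238 to 4299 counts in a library. Levels are given as CPM, counts scaled by library size and TMM factors. The gene count of Arntl went against the label: it was 24.1, 24.2 and 22.5 CPM under the label Bmal1-/-, and 14.7, 15.3, 11.9 and 13.4 CPM under the label WT. The count is for the whole gene, which has an exon that overlaps Gm45355 on the opposite strand, and it does not separate the exons removed by the allele from the rest. Groups are therefore named by their labels throughout. WT replicate 3 (WT 3) lay far from the remaining WT libraries in a principal component analysis, with more transcripts of most EC markers, red cells, macrophages and dividing cells and fewer of neurons. Not all EC markers shared this. Mfsd2a (59.3 CPM) and Abcb1a (53.4 CPM) were lower in WT 3 than in any other WT library, and Slco1a4 (57.3 CPM) lay within their range. Values without WT 3 are given beside the results that it moved most. With edgeR, 230 genes (1.46% of those tested) reached an adjusted p under 0.05, of which 133 (0.845%) were lower and 97 (0.616%) higher in libraries labelled Bmal1-/-. Without WT 3, 775 of 15664 genes passed, and with DESeq2, a second test, 1494 of 16347. With all libraries in edgeR the median log2 fold change over all genes was -0.01.

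RefSeq promoters (250 bases before to 50 after a transcript start, build GRCm38.p6) were matched for 6 of the 10 genes, Vegfa, Kdr, Flt1, Tek, Tie1 and Apln. Those of Angpt1, Angpt2, Aplnr and Nos3 were not matched. The 250 bases before the start are shown for VEGFA, for its receptor Kdr and for the apelin gene, because BMAL1 acts through E-boxes. Aplnr, the gene that moved most, had no matched promoter, so promoter letters were not compared with the size of a difference. Capitals mark a GC box (GGGCGG or its reverse complement CCGCCC) or a GATA site (AGATAA).
Vegfa, chr17:46032378-46032627, minus strand: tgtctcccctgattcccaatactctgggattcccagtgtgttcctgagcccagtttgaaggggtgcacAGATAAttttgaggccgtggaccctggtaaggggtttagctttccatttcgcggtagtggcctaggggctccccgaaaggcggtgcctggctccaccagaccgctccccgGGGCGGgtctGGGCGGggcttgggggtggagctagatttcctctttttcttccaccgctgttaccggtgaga
Kdr, chr5:75978456-75978705, minus strand: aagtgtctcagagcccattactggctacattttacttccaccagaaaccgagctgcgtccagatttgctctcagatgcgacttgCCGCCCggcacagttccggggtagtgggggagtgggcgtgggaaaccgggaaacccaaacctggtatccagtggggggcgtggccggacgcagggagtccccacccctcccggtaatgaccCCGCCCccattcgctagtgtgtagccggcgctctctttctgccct
Apln, chrX:48034854-48035103, minus strand: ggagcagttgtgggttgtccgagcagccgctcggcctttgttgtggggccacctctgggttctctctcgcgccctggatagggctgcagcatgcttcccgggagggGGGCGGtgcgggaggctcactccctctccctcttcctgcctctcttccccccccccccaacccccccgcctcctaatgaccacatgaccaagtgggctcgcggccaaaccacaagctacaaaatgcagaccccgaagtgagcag
The E-box CACGTG was found on either strand in 0 of these 6 genes' promoters, against 8.09% of the 27025 genes with promoters of that length, and the related CACGTT in 0 against 5.44%. The hypoxia response core ACGTG, which lies within CACGTG, was found in 1 of 6 genes, at an inner start of Vegfa, against 21.8% of all genes. The GC box was found in 4 of 6 (Vegfa, Kdr, Flt1 and Apln) against 38.2%, and the GATA site in 2 of 6 (Vegfa, and Tek behind its start) against 12.7%. The D-box TTATGNAA (3.99% of all genes), the ROR element AGGTCA (18.1%) and the ETS site CCGGAAGT (4.31%) were found in 0 of 6. These counts describe the letters in these windows and not whether a factor binds there.

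In the libraries labelled Bmal1-/-, 9 of the 10 genes had a lower mean fitted level than in WT, against 51.1% of all genes. The apelin receptor moved most. Aplnr fell 3.51-fold and was the 1 member that passed the test, against a background of 0.845% of all genes called lower. For 8 of 10 members the 3 libraries labelled Bmal1-/- all lay below the 4 WT libraries, against 13.5% of all genes lower without overlap. An unadjusted p under 0.05 was reached by 7 members, against 20.5% of all genes in either direction. Their median log2 fold change was -0.63, and -0.45 without WT 3, against -0.01 and 0.00 over all genes. The genes were chosen with earlier results of these data known, so the shares over all genes stand beside them as description and are no test. In bulk tissue, fewer EC and less of a transcript per EC cannot be told apart.

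**Figure D1:**
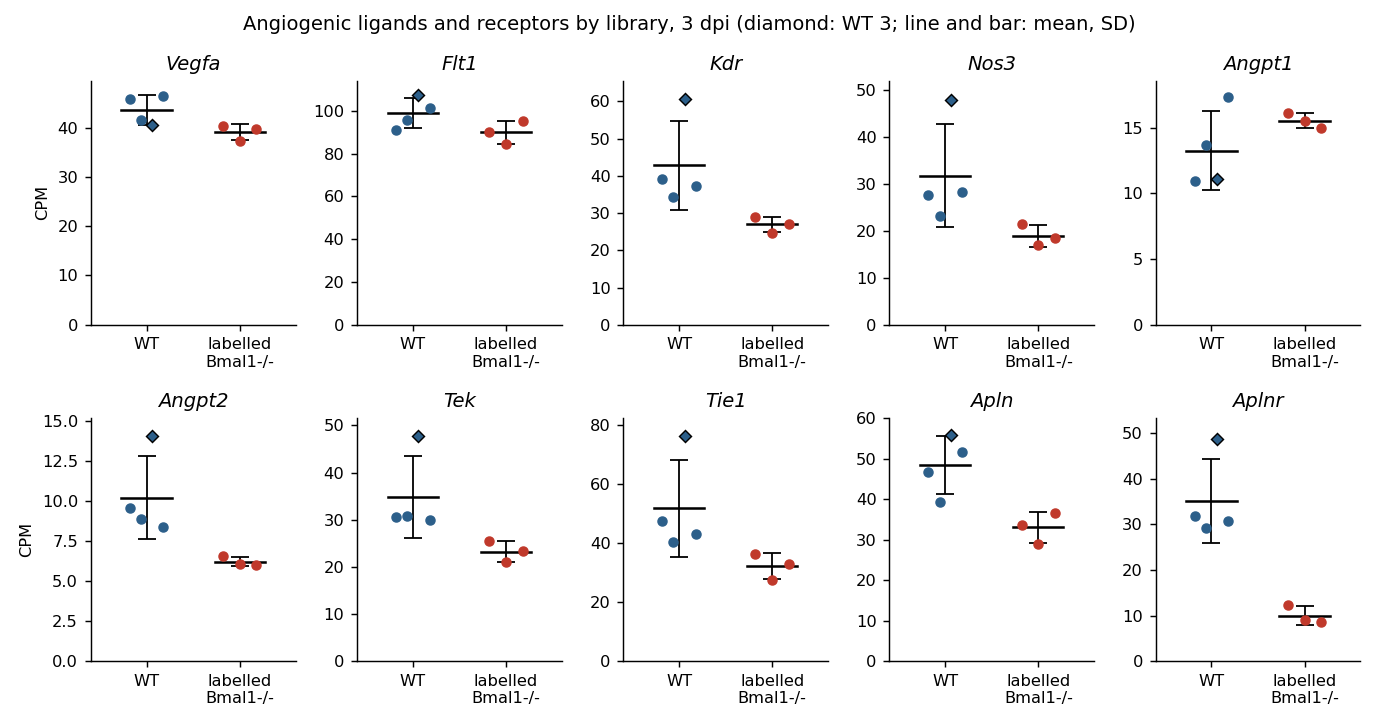
CPM of each gene (vertical axes, from 0) in the 4 WT libraries (blue) and the 3 libraries labelled Bmal1-/- (red), with the mean and SD as black lines and WT 3 as a diamond. Aplnr shows the widest gap, between 12.4 CPM in the highest library labelled Bmal1-/- and 29.2 CPM in the lowest WT library, and Flt1 and Angpt1 overlap between the groups.

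Among the VEGF genes, the ligand and the decoy receptor moved little and the signaling receptor lay lower. Vegfa (ENSMUSG00000023951, chromosome 17 from 46016993 to 46032369) was at 40.3, 37.4 and 39.8 CPM in libraries labelled Bmal1-/- against 45.9, 41.6, 40.6 and 46.5 CPM in WT. The groups did not overlap, but their nearest libraries were 40.3 and 40.6 CPM. The log2 fold change was -0.16 ± 0.07 (SE), with an adjusted p of 0.261. Kdr (ENSMUSG00000062960, chromosome 5 from 75932827 to 75978458) was at 28.9, 24.7 and 27.2 CPM in libraries labelled Bmal1-/- against 39.1, 34.4, 60.6 and 37.3 CPM in WT. All WT libraries were higher, and WT 3 was far above the other 3. Its log2 fold change of -0.67 ± 0.20 (SE) did not pass (adjusted p = 0.151). Without WT 3 the difference shrank to -0.46 and passed (adjusted p = 0.0238). Flt1 (ENSMUSG00000029648, chromosome 5 from 147561604 to 147726011) was at 89.8, 84.5 and 95.2 CPM in libraries labelled Bmal1-/- against 90.9, 95.8, 107 and 101 CPM in WT. These overlap, since the third library labelled Bmal1-/- lay above WT 1. Its log2 fold change was -0.14 ± 0.08 (SE), with an adjusted p of 0.325 and a 95% interval from -0.32 to 0.04.

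Of the other 7 VEGF family genes, 6 were below 0, 5 lay below WT without overlap (13.5% of all genes) and 0 passed, while 2 passed without WT 3 and 3 with DESeq2. The 2 with the lowest p were the neuropilins, co-receptors of VEGF. Nrp1 had a log2 fold change of -0.38 ± 0.08 (SE, adjusted p = 0.0664) and Nrp2 of -0.47 ± 0.12 (SE, adjusted p = 0.109). The median of the 7 was -0.47.

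In the angiopoietin system, the vessel-destabilizing ligand and both receptors lay lower, and the stabilizing ligand did not. Angpt2 (ENSMUSG00000031465, chromosome 8 from 18690263 to 18741562) was at 6.56, 6.08 and 6.04 CPM in libraries labelled Bmal1-/- against 9.57, 8.87, 14.1 and 8.40 CPM in WT. The 3 low libraries lay close together, and every WT library was higher. The log2 fold change was -0.72 ± 0.19 (SE, adjusted p = 0.125), and without WT 3 it was -0.52 (adjusted p = 0.0289). Angpt1 (ENSMUSG00000022309, chromosome 15 from 42424723 to 42676977) was at 16.1, 15.5 and 15.0 CPM in libraries labelled Bmal1-/- against 10.9, 13.7, 11.1 and 17.3 CPM in WT. WT 4 was the highest library of all, so that the groups overlap. Its log2 fold change of 0.23 ± 0.17 (SE, adjusted p = 0.420) was the only one above 0 among the 10 genes. It ran from 0.14 without WT 1 to 0.39 without WT 4. An exon of Angpt1 overlaps Gm17473 on the opposite strand, and the strand setting of the counting is not stated.

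Tek (ENSMUSG00000006386, chromosome 4 from 94739289 to 94874976), the angiopoietin receptor, was at 25.4, 21.0 and 23.3 CPM in libraries labelled Bmal1-/- against 30.6, 30.8, 47.8 and 30.0 CPM in WT. WT 1, WT 2 and WT 4 lay close together and WT 3 far above them. The log2 fold change was -0.58 ± 0.18 (SE, adjusted p = 0.164), and without WT 3 it was -0.39 (adjusted p = 0.0335). Tie1 (ENSMUSG00000033191, chromosome 4 from 118471191 to 118490061), the co-receptor, was at 36.3, 27.6 and 33.1 CPM in libraries labelled Bmal1-/- against 47.5, 40.3, 76.1 and 43.3 CPM in WT. The order of the libraries followed that of Tek in part, with WT 3 highest and the second library labelled Bmal1-/- lowest. Its log2 fold change was -0.68 ± 0.23 (SE, adjusted p = 0.186). Without WT 3 it was -0.44 (adjusted p = 0.0725).

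Of the other 7 angiopoietin pathway genes, 6 were below 0, 1 lay below WT without overlap and 0 passed, while 1 passed without WT 3 and 1 with DESeq2. The gene without overlap was Dok2, an adaptor that TIE2 recruits, with a log2 fold change of -1.15 ± 0.33 (SE, adjusted p = 0.144). It is also expressed by blood cells. Angpt4, a further ligand of TIE2, had a log2 fold change of -0.63 ± 0.23 (SE, adjusted p = 0.201) at 1.32 to 3.05 CPM.

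The apelin receptor had the largest fold of the 10 genes. Aplnr (ENSMUSG00000044338, chromosome 2 from 85136225 to 85139923) was at 12.4, 9.08 and 8.58 CPM in libraries labelled Bmal1-/- against 31.8, 29.2, 48.8 and 30.7 CPM in WT. The lowest WT library was above the highest library labelled Bmal1-/- by more than the range within either set, WT 3 left aside. The log2 fold change was -1.81 ± 0.23 (SE, 95% interval -2.35 to -1.28) with an adjusted p of 0.0150, and Aplnr ranked 79th of all genes by p. Without WT 3 it was -1.61 (adjusted p = 0.00163). The call was lost when any library labelled Bmal1-/- or WT 1 was left out, with adjusted p values from 0.0505 to 0.0864 and log2 fold changes from -1.99 to -1.72. Beside it, 5 of 6 skeletal muscle markers were called lower, against 0.845% of all genes. Their summed levels were 4.98 to 6.60 CPM under the label Bmal1-/- and 45.7 to 59.8 CPM in WT. Their part in the result for Aplnr was not tested. All 6 were detected in every WT library, and Myh4 was at 0 in 1 library labelled Bmal1-/-.

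Apln (ENSMUSG00000037010, chromosome X from 48025146 to 48034853), the ligand, was at 33.6, 28.9 and 36.6 CPM in libraries labelled Bmal1-/- against 46.8, 39.2, 55.9 and 51.6 CPM in WT. The groups did not overlap, and WT 3 did not stand apart here. The log2 fold change was -0.55 ± 0.14 (SE, adjusted p = 0.106), and without WT 3 it was -0.47 (adjusted p = 0.0777). Of the other 4 apelin pathway genes, 3 were tested and 0 passed, also without WT 3, where their median moved from 0.03 to -0.18. Ece1, an endothelin-converting enzyme, had a log2 fold change of -0.32 ± 0.13 (SE, adjusted p = 0.219). Apela, the second ligand of APJ, had no more than 0.177 CPM in any library and was not tested.

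Nos3 (ENSMUSG00000028978, chromosome 5 from 24364810 to 24384474), the EC enzyme that makes nitric oxide, was at 21.5, 16.9 and 18.6 CPM in libraries labelled Bmal1-/- against 27.6, 23.2, 47.9 and 28.3 CPM in WT. The groups did not overlap, with 21.5 and 23.2 CPM as the nearest libraries. The log2 fold change was -0.74 ± 0.25 (SE, adjusted p = 0.183). Without WT 3 it was -0.47 (adjusted p = 0.0629). Exons of Nos3 overlap Atg9b and Gm15587 on the opposite strand. Atg9b was counted at 3.07 to 8.32 CPM and went the other way, with a log2 fold change of 0.59 (adjusted p = 0.214).

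The 11 other nitric oxide pathway genes were divided, with 6 below 0, 5 above 0 and 0 called (1 without WT 3 and 1 with DESeq2). Those with the lowest p lay higher in the libraries labelled Bmal1-/-. Ddah1, which degrades an inhibitor of nitric oxide synthases and is abundant in astrocytes, was at 289, 271 and 257 CPM against 218, 221, 195 and 212 CPM in WT. Its log2 fold change was 0.37 ± 0.08 (SE, adjusted p = 0.0721). Gucy1b1, a subunit of the nitric oxide receptor, had a log2 fold change of 0.46 (unadjusted p = 0.0586). Both lay above WT without overlap, as did Gucy1a1, the partner subunit, named here after its values were seen. These are 3 of 11 genes, against 13.4% of all genes higher without overlap.

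**Figure D2:**
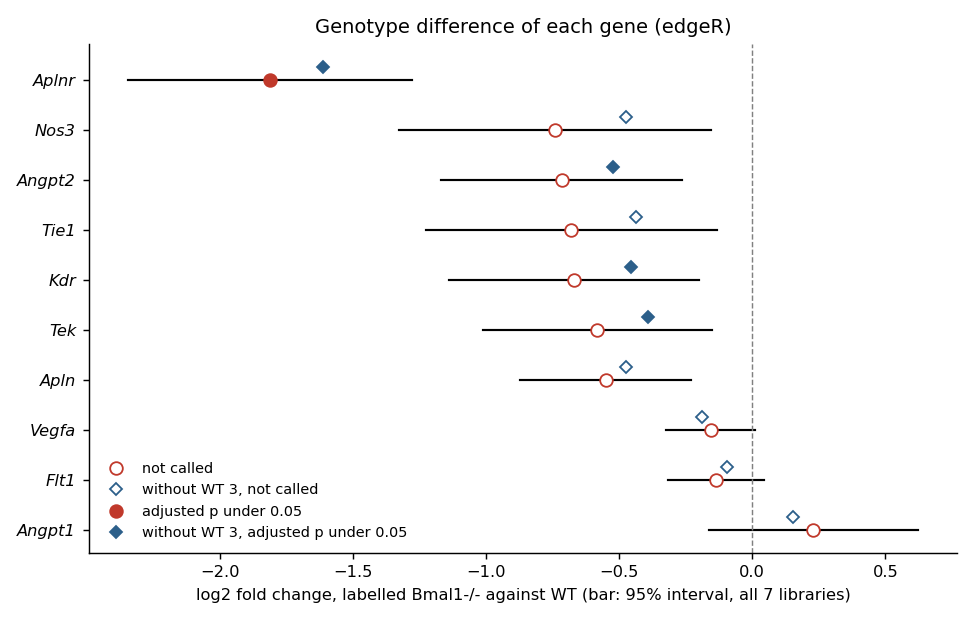
Log2 fold change of each gene (circles, edgeR, all 7 libraries) with its 95% interval, and the same without WT 3 (diamonds), where filled marks have an adjusted p under 0.05. With all libraries only Aplnr is filled, and without WT 3 Kdr, Angpt2 and Tek are filled as well although their differences are nearer to 0.

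The number of members called depended on the test and on WT 3. With DESeq2 5 members passed, Kdr, Angpt2, Tek, Apln and Aplnr, against 5.63% of all genes called lower by that test. Without WT 3 it was 4, Kdr, Angpt2, Tek and Aplnr, against 2.96% of all genes. In simulated counts, 44 of 200 DESeq2 calls were false, against 3 of 136 for edgeR. The simulation changed only 200 genes and gave no library a shift shared by many genes, as WT 3 had. These shares therefore do not give the share of false calls among the members. Every member kept the sign of its log2 fold change in all 15 alternatives.

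Ratios within a library do not depend on how libraries are scaled. The ratio of Angpt2 to Angpt1 counts was 0.407, 0.392 and 0.403 in libraries labelled Bmal1-/- against 0.876, 0.648, 1.27 and 0.485 in WT. Every WT ratio was higher, with a log2 difference of -0.94 (-0.70 without WT 3). The ratio of Apln to Aplnr was 2.72, 3.18 and 4.27 in libraries labelled Bmal1-/- against 1.47, 1.34, 1.15 and 1.68 in WT. Thus receptor counts were low relative to ligand counts in every library labelled Bmal1-/-, with a log2 difference of 1.25. The ratio of Flt1 to Kdr was 3.10, 3.42 and 3.50 against 2.32, 2.78, 1.77 and 2.72 in WT, a log2 difference of 0.50 (0.36 without WT 3). The ratio of Vegfa to Kdr was 1.39, 1.51 and 1.47 against 1.17, 1.21, 0.670 and 1.25 in WT, a log2 difference of 0.48 (0.27 without WT 3). These 4 ratios did not overlap between the groups, in contrast to Tie1 to Tek, which ran from 1.32 to 1.43 in libraries labelled Bmal1-/- and overlapped the 1.31 to 1.59 of WT.

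An exact two-sided permutation test over the 7 libraries gave p = 0.0571 for each of the 4 ratios without overlap (0.0714 after Benjamini-Hochberg adjustment over the 5 ratios). This is the smallest p the design allows, so no ratio could pass 0.05. For Tie1 to Tek the exact permutation p was 0.286.

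**Figure D3:**
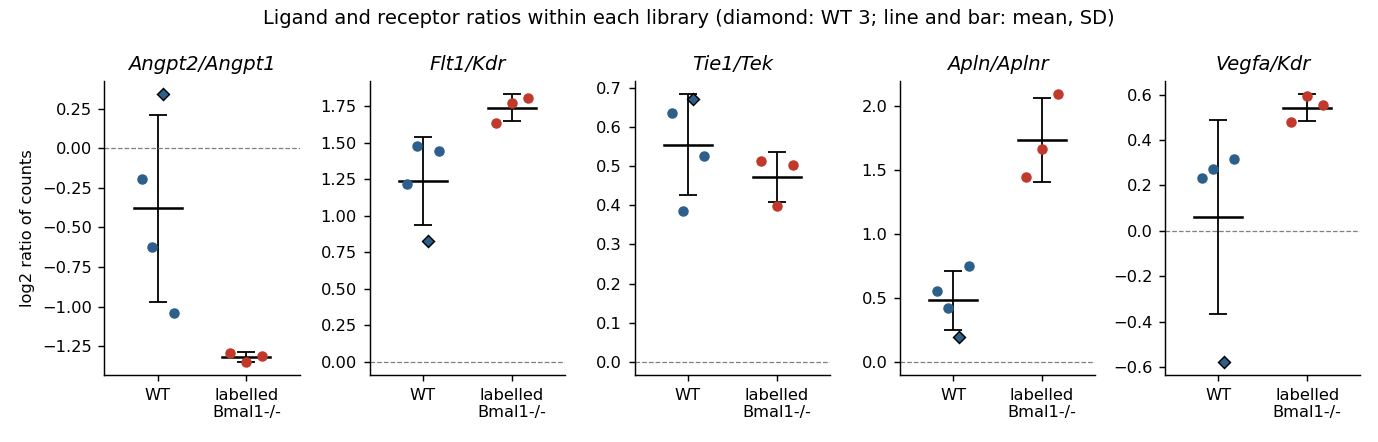
Log2 ratio of the counts of each pair of genes in the 4 WT libraries (blue, WT 3 as a diamond) and the 3 libraries labelled Bmal1-/- (red), with the mean and SD as black lines and a dashed line at equal counts. Apln to Aplnr has means of 1.73 (labelled Bmal1-/-) and 0.48 (WT), while the means of Tie1 to Tek, 0.47 and 0.55, lie within the spread.

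Most EC markers also lay lower, which bears on receptors that EC carry. Of 12 EC markers, 10 were below 0, 6 lay below WT without overlap (13.5% of all genes) and 0 passed. Their median log2 fold change was -0.53. They ran from -0.85 (Cdh5) to 0.16 (Slco1a4), with Abcb1a at 0.03, while Pecam1 and Cldn5 overlapped WT. Without WT 3 their median was -0.37 and 3 passed, and with DESeq2 2 passed. Their summed level ran from 598 to 673 CPM in libraries labelled Bmal1-/- against 706 to 1051 CPM in WT. Each gene was therefore also expressed relative to the mean log2 CPM of these 12 markers in the same library. That mean was 5.50 ± 0.10 (SD, n = 3) under the label Bmal1-/- against 5.91 ± 0.25 (SD, n = 4) for WT.

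Relative to the EC markers, Aplnr stayed 1.39 lower on the log2 scale, at -2.20 ± 0.18 (SD, n = 3) against -0.81 ± 0.10 (SD, n = 4). Its highest library labelled Bmal1-/- was at -1.99 and its lowest WT library at -0.90. Kdr, Angpt2 and Nos3 also remained below WT without overlap, by much less, with differences of -0.23, -0.28 and -0.29 (-0.19 for Nos3 without WT 3). Tek, Tie1, Apln and Flt1 overlapped between the groups, with differences of -0.15, -0.24 (-0.16 without WT 3), -0.14 and 0.27. That of Apln ran from -0.25 to -0.07 as single libraries were left out. Angpt1 and Vegfa, which other cells make, were higher relative to EC markers without overlap, by 0.66 and 0.25 (0.46 and 0.10 without WT 3). With Pecam1, Cdh5 and Cldn5 as the only markers, all 10 differences kept their sign, and that of Aplnr was -1.31. Those of Kdr, Angpt2 and Nos3 shrank to -0.14, -0.19 and -0.20. The size of these small differences thus depended on the markers chosen, whose own log2 fold changes ran from -0.85 to 0.16. These are descriptions with no test.

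**Figure D4:**
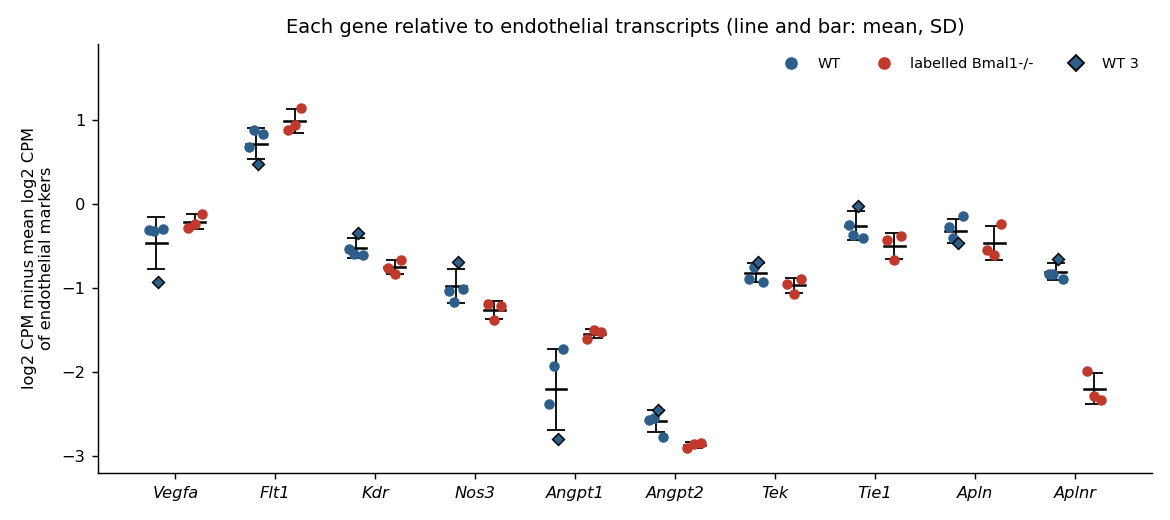
Log2 CPM of each gene minus the mean log2 CPM of 12 EC markers in the same library (vertical axis), for WT (blue, WT 3 as a diamond) and libraries labelled Bmal1-/- (red), with the mean and SD as black lines. Aplnr lies near -0.81 in WT and -2.20 under the label Bmal1-/-, and the other genes differ by 0.66 or less.

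Further genes of EC and of vessel growth were examined by lists. Over all 7 lists, 67 of 68 genes were tested and 52 were below 0, against 51.1% of all genes. With all libraries in edgeR 1 passed, which is near the 1.46% of all genes called. Without WT 3, 11 passed, against 775 of 15664 genes, and with DESeq2 16 passed, against 1494 of 16347. The 1 gene called with all libraries in edgeR was Calcrl. It is the receptor that binds adrenomedullin together with RAMP2 and another G protein-coupled receptor of EC. Calcrl was at 17.6, 15.8 and 14.5 CPM in libraries labelled Bmal1-/- against 24.7, 26.6, 30.7 and 26.0 CPM in WT. Its log2 fold change was -0.76 ± 0.10 (SE, adjusted p = 0.0203), and no overlap was seen. Without any one of 5 libraries, all but the second labelled Bmal1-/- and WT 3, 0 of the 67 genes passed. Among the other 11 receptors of angiogenic ligands 9 were below 0. Ramp2, named here after its values were seen because it is the partner of Calcrl, had nearly the same difference of -0.76 ± 0.17 (SE, adjusted p = 0.0855).

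All 13 transcription factors listed as endothelial, some of which other cells express as well, were below 0. Of these 8 lay below WT without overlap (13.5% of all genes), but 0 passed. Their median was -0.45. Without WT 3 it was -0.43 and 3 passed, and with DESeq2 5 passed. Hif1a, the oxygen-sensitive regulator that drives Vegfa in hypoxia, was at 167, 150 and 154 CPM in libraries labelled Bmal1-/- against 228, 188, 225 and 216 CPM in WT. It had a log2 fold change of -0.45 ± 0.09 (SE, adjusted p = 0.0658). Ets1, a factor of vessel growth that lymphocytes also express, had a log2 fold change of -0.83 ± 0.20 (SE, adjusted p = 0.0990).

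Of the 14 sprouting and Notch genes, 10 were below 0 and 0 passed, with a median of -0.21. Without WT 3 the median was -0.08 and 1 passed, and with DESeq2 3 passed. Jag1, a Notch ligand, had a log2 fold change of -0.98 ± 0.20 (SE, adjusted p = 0.0696) and Nid2, a basement membrane protein, of -0.65 ± 0.16 (SE, adjusted p = 0.0990). Esm1, a marker of tip cells at the front of sprouts, had a difference of -1.91 ± 0.58 (SE, adjusted p = 0.155), and is named here after its values were seen. It was at 1.04, 3.37 and 0.457 CPM in libraries labelled Bmal1-/- against 6.07, 6.30, 6.69 and 5.55 CPM in WT.

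**Figure D5:**
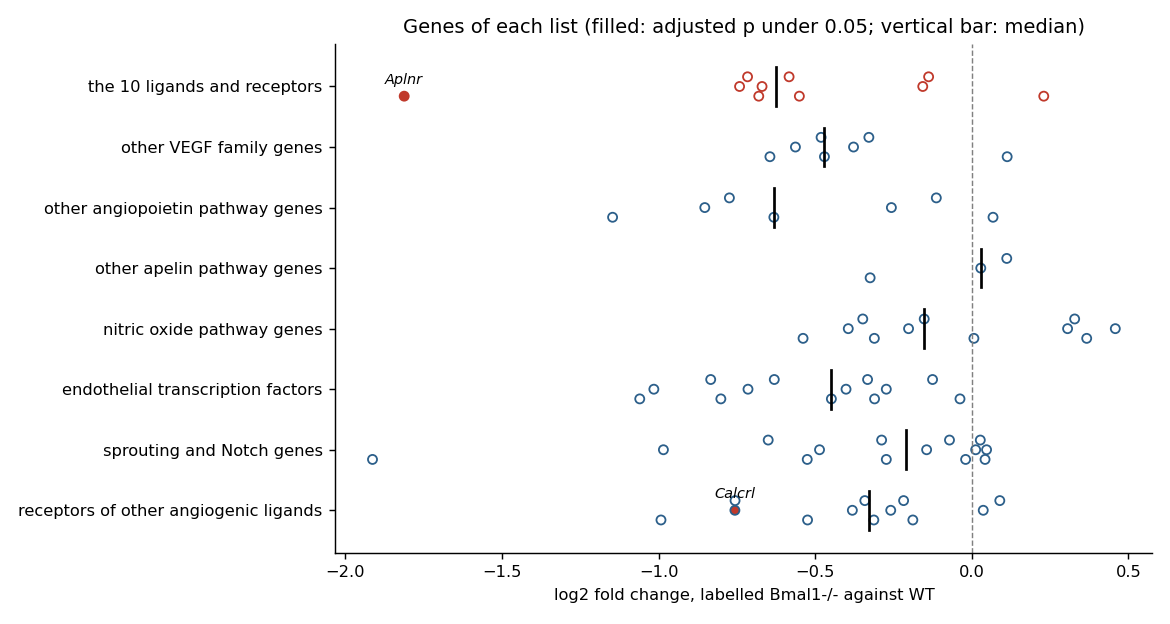
Log2 fold change (horizontal axis) of every tested gene of the 10 ligands and receptors (red) and of 7 lists of other genes (blue), with filled points for an adjusted p under 0.05 and a vertical bar at each median. Aplnr and Calcrl are the only filled points, and the medians run from -0.63 to 0.03, the last for the 3 tested genes of the apelin list.

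The profile of each gene over the 7 libraries was compared with all others as the root mean square difference of centred log2 CPM, over 14348 genes with a mean of at least 1 CPM. Among the members, Kdr and Tie1 were most alike (0.058), followed by Kdr and Tek and by Tie1 and Nos3 (0.072 each). Vegfa and Flt1 differed by 0.118, and Aplnr differed from every other member by 0.561 or more. Of all genes, the 3 most like Kdr were Foxf2, She and Esam (0.041 to 0.056), and those most like Angpt2 were Ier3, Sox17 and Foxf2 (0.057 to 0.065). For Nos3 they were Spdl1, Col7a1 and She (0.054 to 0.064). No gene was that close to Aplnr. The values were centred but not scaled, so this distance grows with the size of a fold change. The greater distance of Aplnr is therefore no result separate from its fold change. The nearest were Tagln, Lhx6 and Des (0.205 to 0.226). Tagln encodes a smooth muscle protein and was at 94.0, 106 and 71.6 CPM in libraries labelled Bmal1-/- against 304, 323, 419 and 284 CPM in WT. Des encodes the muscle intermediate filament desmin and was at 5.26, 4.67 and 4.29 CPM against 17.7, 15.2, 25.1 and 10.4 CPM. Of 6 pericyte markers 3 were below 0 and 3 above, with 0 called (2 with DESeq2). Among them Rgs5 lay below WT without overlap, with a log2 fold change of -0.47, and Abcc9 above it, with 0.26. Rgs5 and Abcc9 are named after their values were seen.

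The sign of the difference was the same in both sexes for all 10 genes. In females (2 against 2) and in males (1 against 2), the libraries labelled Bmal1-/- were below WT for every member but Angpt1, Flt1 included. For 8 of the 10 genes this order follows from the lack of overlap over all 7 libraries, so it is no further result. Angpt1 lay above WT in females (0.37) and overlapped in males (0.11). For Aplnr the difference in mean log2 CPM was -1.53 in females and -2.17 in males, and for Nos3 it was -0.41 and -0.99. WT 3 is a male. The interaction of genotype and sex did not pass for any member, with adjusted p values (edgeR) from 0.430 for Aplnr to 0.901 for Vegfa. Over all genes 0 passed that test, and 1872 had an unadjusted p under 0.05.

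Per length of exon the 10 genes were at moderate levels. In WT, Apln was highest at 15.4 ± 2.27 RPKM (SD, n = 4), followed by Tie1 (10.5), Vegfa (10.2), Aplnr (9.50), Nos3 (7.68), Tek (7.39), Flt1 (7.32), Kdr (4.75), Angpt2 (2.77) and Angpt1 (2.55 ± 0.574 RPKM). Of the 9 pairs of neighbours in this order 8 overlapped in their libraries, and the exception was Flt1 and Kdr. In the libraries labelled Bmal1-/- the order was Apln (10.5 ± 1.25 RPKM, SD, n = 3), Vegfa (9.14), Flt1 (6.65), Tie1 (6.58), Tek (4.93), Nos3 (4.60), Angpt1 (2.99), Kdr (2.98), Aplnr (2.70) and Angpt2 (1.69 ± 0.0779 RPKM). Aplnr thus stood in the fourth place in WT and in the ninth in the libraries labelled Bmal1-/-, where 5 of 9 pairs of neighbours overlapped and Kdr overlapped both Angpt1 and Aplnr.

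Several lists of markers of other cells moved with the genotype too, and others moved little. Of 5 oligodendrocyte markers 2 were below 0 and 3 above, with a median log2 fold change of 0.04. The median of 5 microglia markers was -0.10. Cord markers were abundant in all libraries, with Mbp of oligodendrocytes at 10914 to 19940 CPM. Of 6 astrocyte markers 4 lay above WT without overlap (13.4% of all genes) and 0 were called (1 without WT 3 and 2 with DESeq2). Aldh1l1 went the other way and lay below WT without overlap, with a log2 fold change of -0.47 (edgeR adjusted p = 0.141). The median log2 fold change of the 6 was 0.42 (0.32 without WT 3). Their summed levels, of which Gfap was the largest part, were 14123 to 16794 CPM against 9487 to 13572 CPM in WT. All 6 neuron markers were above 0 with 0 called, at a median of 0.40 (0.20 without WT 3). Red cell transcripts summed to 26.1 to 60.0 CPM in libraries labelled Bmal1-/- against 149 to 451 CPM in WT, with 5 of 5 below WT without overlap and 1 called, and 5 called both without WT 3 and with DESeq2. Cell cycle transcripts summed to 195 to 261 CPM against 322 to 552 CPM. Here 6 of 6 lay below WT without overlap and 0 were called, and 4 were called without WT 3 and 6 with DESeq2. Over all genes, 13.5% lay lower without overlap and 0.845% were called lower (2.96% without WT 3 and 5.63% with DESeq2). Fibroblast transcripts summed to 298 to 2213 CPM in libraries labelled Bmal1-/-, with the second library highest, against 1103 to 1817 CPM in WT. The part of these differences in the values of the 10 genes was not tested.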

How the data were processed

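RNA was extracted from the epicenter of 7 contused cords. The authors made stranded poly-A libraries, sequenced them for 75 cycles, checked reads with FastQC 0.10.1, mapped them by Tophat2 (GRCm38) and assigned them to genes by HTSeq 0.10.0. They deposited raw counts per gene, without normalization and without pooling of mice. The annotation release and the strand setting of the counting are not given in the sources used here.

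Genes were filtered with filterByExpr, scaled with TMM and tested on genotype with edgeR 4.0.16 (robust quasi-likelihood test, limma 3.58.1, R 4.3.3), with Benjamini-Hochberg adjustment over 15743 genes and a threshold of 0.05. SE were taken from the log2 fold change and its F statistic. RPKM used exon lengths of GENCODE release M21. Ratios used counts plus 0.5. Symbols were matched for 21939 of 21965 gene IDs. The study compared the genotypes with DESeq2, used here (1.42.0) as an alternative beside limma-voom, RLE and upper-quartile scaling, other filters, sex, a replicate block and each library left out in turn. In simulated counts with 200 changed genes (15656 genes tested), edgeR recovered 133 with 3 false calls. It recovered 14% of those changed 1.5-fold and 72% of those changed 2-fold. From the same simulated counts DESeq2 recovered 156, and 44 of its 200 calls were false. Spread between mice, more than counting error, limits the precision. Libraries were not duplicates of each other.

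The members, lists, markers and motifs were chosen with earlier results of these data known. All members are named. Of each list the called genes are named, or else the 2 with the lowest p. One result that meets this rule is not reported here. Likeness is given for the member with the lowest p in each of 4 groups.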

Additional observations from a re-analysis of the deposited data

Results flagged for a closer look

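In 4 of 25 sets of 4 WT values, the lowest or highest value lay farther from the rest than Dixon's 95% critical value allows. That value was WT 3 each time. The sets share genes and the same 4 libraries, so their count cannot be set against the 1 in 20 of a single set. Tek was at 47.8 CPM in WT 3 and at 30.0 to 30.8 CPM in the other WT libraries. Aplnr was at 48.8 CPM in WT 3 and at 29.2 to 31.8 CPM in the others. The log2 ratio of Vegfa to Kdr was -0.58 in WT 3 and 0.23 to 0.32 in the others. Vegfa relative to the EC markers was at -0.93 in WT 3 and at -0.32 to -0.30 in the others, so that without it the difference between the groups fell from 0.25 to 0.10 on the log2 scale.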

How the results depend on the processing

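Replicate numbers did not pair the samples: the correlations of same-numbered libraries were -0.17, 0.18 and -0.29. With the replicate block, 0 genes passed (1538 had an unadjusted p under 0.05), hence 0 lower, 0 higher, 0 members and 0 pathway genes, and Aplnr was at -1.85 (adjusted p = 0.231). With DESeq2, 1494 genes passed (921 lower, 573 higher), 5 members and 16 pathway genes, and Kdr (-0.67), Angpt2 (-0.71), Tek (-0.58) and Apln (-0.55) gained a call. Leaving out single libraries gave 49 (without the first labelled Bmal1-/-) to 775 (without WT 3) genes called, 21 to 463 lower and 28 to 312 higher, 0 to 4 members and 0 to 11 pathway genes. It gave log2 fold changes of -0.77 to -0.46 for Kdr, -0.80 to -0.52 for Angpt2, -0.65 to -0.39 for Tek, 0.14 to 0.39 for Angpt1 and -1.99 to -1.61 for Aplnr, and -1.50 to -1.33 for Aplnr relative to EC markers. The cause of these shifts was not tested. No value of a member changed sign under any alternative run, and Vegfa, Flt1, Angpt1, Tie1 and Nos3 passed in none. The adjusted p of Aplnr ran from 3.85e-12 (DESeq2) to 0.231 (edgeR with the replicate block, although replicate numbers did not pair the samples). Its next highest value was 0.0864, in edgeR without the third library labelled Bmal1-/-. In simulated counts, a 1.5-fold change was found for 14% of genes, which is the size of most members' differences.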
